A study of Mus musculus with 11 samples.

Results

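Genes without an intron entry were genes that the exon count files of this series list and the intron count files do not. The exon files hold 21677 genes, of which 18824 also have an intron entry and 2853 do not. Histone cluster, small nucleolar RNA, microRNA and ribosomal protein genes, recognised by symbol, were left out (650 of the 2853). Of the remainder, 502 genes reached at least 10 exon counts in 2 or more libraries and 1701 did not. The 502 genes are described here beside genes with an intron entry, of which 14147 reached the same minimum. At the edge of the count rule, 25 of the 502 had a second-highest count of 10 or 11, and 32 genes were left out with 8 or 9.

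The cells were C2C12, an established line of mouse myoblasts, that had been given adenovirus (multiplicity of infection 100) whose hairpin, driven by a U6 promoter, is directed against Zc3h10 (shZc3h10) or scrambled. Zc3h10 encodes a zinc finger protein, and the series asks what it does in mitochondria, iron and cardiolipin metabolism. All cells received the nucleoside 4-thiouridine (4sU) at 300 µM for 30 min, so both hairpin groups and both kinds of RNA share the virus and the label. RNA that had taken up 4sU, called 4sU RNA here, was sequenced in 5 libraries (3 with the shZc3h10 label, 2 with the scramble label), and total RNA, cleared of ribosomal RNA, in 6 (3 with each label). Nothing in the labels says that replicates were separate cultures, so p-values cover only the spread among the libraries sequenced, part or all of which may be technical.

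Most mammalian protein-coding genes are interrupted by introns, and their first transcripts are spliced before export. Genes without introns skip that step, and the RNA is complete once it is cut and, for most mRNAs, polyadenylated at its 3′ end. Known families of this kind include the Jun transcription factors, SOXC and many forkhead factors, Frizzled receptors, many G protein-coupled receptors, inducible heat shock proteins and the beta protocadherins. Others are retrocopies, made when an mRNA is copied back into the genome, and nuclear or structured RNAs such as Malat1 and the RNA of RNase MRP. A 4sU library is enriched for RNA made during the labelling, while total RNA also holds what was made earlier, so the ratio of 4sU RNA to total RNA is relatively high for RNA with fast turnover and low for RNA that persists.

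Libraries of 4sU RNA held 10369374 to 19690198 exon counts and libraries of total RNA 31058706 to 54075687, and introns held 67.9 to 71.7% of all counts in 4sU RNA but 10.7 to 21.9% in total RNA. The file names of all 6 total RNA libraries carry the other hairpin than the labels do. Groups were kept as labelled. Exon counts of Zc3h10 stood at 13.2, 18.8 and 12.8 CPM (exon counts divided by the library size after normalisation) in the shZc3h10 group of 4sU RNA and at 21.5 and 20.1 CPM in the scramble group. In total RNA they stood at 69.6, 114 and 75 CPM under the shZc3h10 label and at 43.6, 52.8 and 29.6 CPM under the scramble label, which goes against the labels. Every direction in total RNA below therefore holds for the libraries as labelled. With the hairpins of the file names, each would have the other sign. Zc3h10 itself was not called in 4sU RNA (log2 fold change −0.49, SE 0.19, edgeR's adjusted p = 0.128). Nor was it called in total RNA (1.04, SE 0.30, edgeR's adjusted p = 0.0522). Myoblast markers were present in every library (Myod1 56.6 to 80.4 CPM, Pax7 42.8 to 62.2 CPM), except that Myf6 and Pax3 did not exceed 1.2 CPM. Of 17 markers of other cell types, Adipoq did not exceed 0.272 CPM and Ptprc 0.545 CPM. Higher values were seen for Csf1r (0.492 to 3.29 CPM), Krt14 (1.07 to 4.2 CPM), Tie1 (0.26 to 5.46 CPM) and Alpl (up to 2.18 CPM). Of the neuronal markers, Tubb3 ranged from 5.11 to 136 CPM, Snap25 did not exceed 0.562 CPM and Syt1 0.281 CPM. In bulk RNA, fewer cells of a type and less RNA per cell cannot be told apart.

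Having no intron entry was not the same as having no intron. GENCODE M21, used for gene class, exon number and overlap, held 450 of the 502 genes. Of these, 369 had 1 exon in every annotated transcript and 81 had more than 1 in some transcript, among them Malat1, Snhg1 and Epm2aip1. By class, 319 were protein coding, 71 were pseudogenes, 42 were long non-coding RNAs, 13 were small or other non-coding RNAs and 5 awaited experimental checking. By place, 290 lay apart from any gene with an intron entry, 98 lay inside an intron of another gene (57 on its strand and 41 on the opposite strand) and 62 overlapped another gene in another way. The labels and headers do not give the use of strand or the treatment of overlaps in counting, so counts of genes inside or over other genes are uncertain, and so are those of near-identical copies such as Hspa1a and Hspa1b, the beta protocadherins and retrocopies.

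Sequences of 3 structured RNAs among the 502 genes are shown because 4sU can enter RNA only at uridines and these RNAs are short. The letters are those of the GENCODE M21 transcripts (GRCm38), 5′ to 3′, with uridines written as T and in capitals. Rmrp is the RNA of RNase MRP, which processes ribosomal RNA precursors. Rprl3 is annotated as a ribozyme. Scarna3a is a small Cajal body RNA, a class that guides modification of spliceosomal RNAs.
Rmrp: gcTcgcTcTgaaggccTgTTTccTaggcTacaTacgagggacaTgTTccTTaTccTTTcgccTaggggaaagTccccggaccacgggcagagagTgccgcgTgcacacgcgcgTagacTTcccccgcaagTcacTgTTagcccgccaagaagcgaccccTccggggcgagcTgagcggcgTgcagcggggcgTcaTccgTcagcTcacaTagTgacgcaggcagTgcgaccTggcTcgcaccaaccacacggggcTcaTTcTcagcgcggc
Rprl3: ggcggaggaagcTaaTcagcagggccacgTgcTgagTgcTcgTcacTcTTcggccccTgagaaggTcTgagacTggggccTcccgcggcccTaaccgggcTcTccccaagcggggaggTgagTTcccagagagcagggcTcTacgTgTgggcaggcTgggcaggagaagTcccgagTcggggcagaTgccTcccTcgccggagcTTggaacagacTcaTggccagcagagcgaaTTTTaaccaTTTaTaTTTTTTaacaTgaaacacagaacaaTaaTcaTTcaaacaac
Scarna3a: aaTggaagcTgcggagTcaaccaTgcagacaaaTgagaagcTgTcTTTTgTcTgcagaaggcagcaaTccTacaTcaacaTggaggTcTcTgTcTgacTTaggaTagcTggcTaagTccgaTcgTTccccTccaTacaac
Rmrp has 46 uridines in 271 bases (17.0%), Rprl3 54 in 290 (18.6%) and Scarna3a 33 in 140 (23.6%). Over the 450 genes found in the annotation, the longest transcript had a median of 505 uridines and 24.0% uridine, against 852 and 24.8% in genes with an intron entry.

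Promoters are shown for 3 genes that fell in 4sU RNA with shZc3h10 (Jun, Jund, Rhob) and 3 that rose (Tril, Fibin, Gas1), in RefSeq sequence on GRCm38.p6, as the 250 bases before the annotated start, 5′ to 3′ on the strand of the gene. Capitals mark matches on either strand to the TATA box TATAAA, the CCAAT box, the GC box GGGCGG, the cyclic AMP element TGACGTCA, the AP-1 element TGANTCA and the element variant TGACATCA, none of which overlapped another here.
Jun, chr4:95052223-95052472, minus strand: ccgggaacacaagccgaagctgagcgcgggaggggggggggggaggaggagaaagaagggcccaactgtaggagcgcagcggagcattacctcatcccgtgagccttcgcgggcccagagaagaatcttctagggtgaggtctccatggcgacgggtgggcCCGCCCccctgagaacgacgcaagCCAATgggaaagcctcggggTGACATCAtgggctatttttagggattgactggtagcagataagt
Jund, chr8:70697489-70697738, plus strand: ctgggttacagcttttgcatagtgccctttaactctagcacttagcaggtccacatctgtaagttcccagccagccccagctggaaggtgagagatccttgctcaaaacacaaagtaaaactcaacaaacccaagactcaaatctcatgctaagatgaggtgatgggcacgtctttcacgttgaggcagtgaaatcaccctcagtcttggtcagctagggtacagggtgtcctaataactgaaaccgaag
Rhob, chr12:8500010-8500259, minus strand: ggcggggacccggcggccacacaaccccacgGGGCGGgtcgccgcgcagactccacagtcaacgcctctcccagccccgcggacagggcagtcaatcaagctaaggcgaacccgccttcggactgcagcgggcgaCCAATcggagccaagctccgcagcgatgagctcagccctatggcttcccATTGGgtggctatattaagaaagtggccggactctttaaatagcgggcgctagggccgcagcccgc
Tril, chr6:53820826-53821075, minus strand: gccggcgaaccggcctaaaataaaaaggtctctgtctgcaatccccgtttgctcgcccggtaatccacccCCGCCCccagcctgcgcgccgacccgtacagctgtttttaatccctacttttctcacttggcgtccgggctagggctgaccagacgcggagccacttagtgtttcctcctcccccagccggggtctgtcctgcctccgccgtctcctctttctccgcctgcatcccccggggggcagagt
Fibin, chr2:110362994-110363243, minus strand: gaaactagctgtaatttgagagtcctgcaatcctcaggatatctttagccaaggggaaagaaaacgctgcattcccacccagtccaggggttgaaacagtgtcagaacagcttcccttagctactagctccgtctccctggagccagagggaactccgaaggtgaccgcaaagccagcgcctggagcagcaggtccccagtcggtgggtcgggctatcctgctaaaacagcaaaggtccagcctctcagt
Gas1, chr13:60177536-60177785, minus strand: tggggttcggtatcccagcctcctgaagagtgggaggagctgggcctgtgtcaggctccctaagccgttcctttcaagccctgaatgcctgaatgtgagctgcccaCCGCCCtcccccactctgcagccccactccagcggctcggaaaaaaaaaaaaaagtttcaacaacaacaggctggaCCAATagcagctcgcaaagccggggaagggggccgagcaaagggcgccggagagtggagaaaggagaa
The table of promoters held 293 of the 502 genes. The GC box GGGCGG stood in 138 of these 293 promoters (47.1%), against 8901 of 27025 promoters of all genes (32.9%). The 27025 were not limited to genes at the count minimum, as the 293 were, so the sets differ in more than the intron entry. Genes with an intron entry at that minimum were not compared. The CCAAT box stood in 36.2% against 34.5%, TATAAA in 9.56% against 13%, and the AP-1 letters TGANTCA in 4.1% against 6.87%. The element TGACGTCA stood in 2.73% against 1.62%, and its variant TGACATCA, which the Jun promoter holds 45 bases before the start, in 3.41% against 3.02%. No match to these letters was found in the windows of Jund and Fibin. These are matches of letters and say nothing of binding.

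The genes without an intron entry made up a larger share of exon counts in 4sU RNA than in total RNA. It was 2.79 to 3.32% in the 5 libraries of 4sU RNA and 0.809 to 1.29% in the 6 of total RNA, without overlap. Malat1, a nuclear long non-coding RNA, alone took 1.33 to 1.78% and 0.0779 to 0.522%. Without Malat1 the share was 1.45 to 1.54% against 0.643 to 0.765%. The typical gene of the group was low: its log2 CPM lay 2.23 to 2.40 below that of genes with an intron entry in 4sU libraries (medians, pseudocount 0.5) and 2.84 to 3.06 below in total libraries.

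In the fit over all 11 libraries, the log2 ratio of 4sU RNA to total RNA had a median of 0.58 over the 490 genes without an intron entry that passed the filter on low counts (quartiles −0.70 and 2.12). Over 14278 genes with an intron entry it was −0.04 (quartiles −1.04 and 0.93), a difference of 0.62. By the quasi-likelihood test of edgeR, adjusted by Benjamini-Hochberg over all genes, 228 of the 490 were higher in 4sU RNA (46.5%) and 119 lower (24.3%). Of all 15046 genes tested, 71.0% were called, with 35.1% higher and 35.9% lower. The share called in either direction among the 490, 70.8%, was thus near the background, and the split between directions was not. Scaling by library size alone moved the median of all genes from −0.01 to 0.77 and the calls to 301 higher and 63 lower, while the difference between the medians stayed at 0.63.

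**Figure D1:**
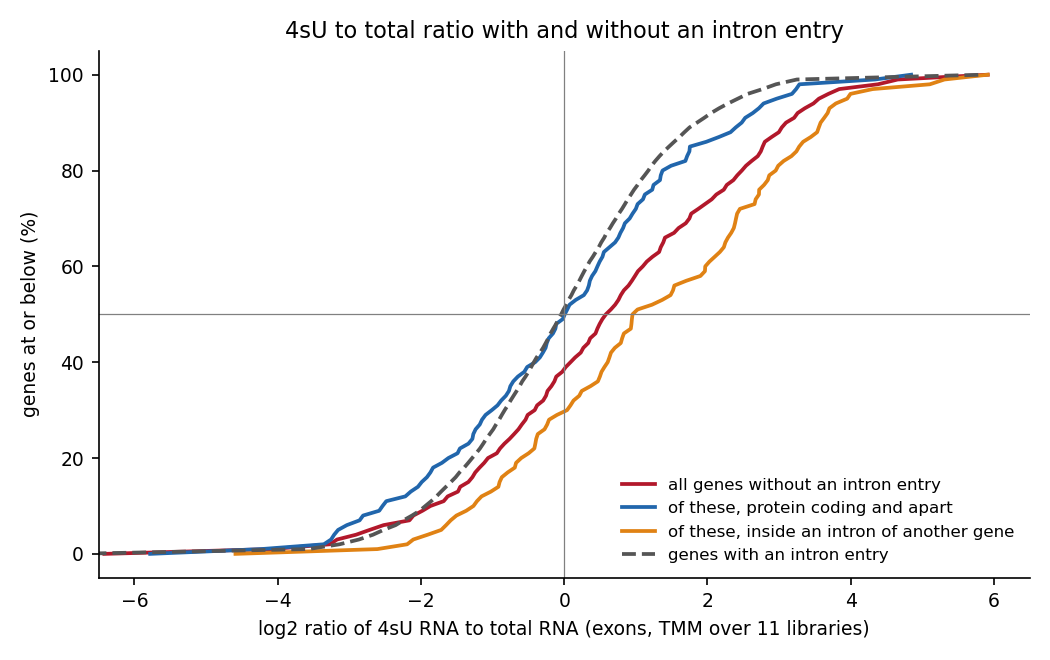
Percentiles of the log2 ratio of 4sU RNA to total RNA (x axis) by the percentage of genes at or below each value (y axis), for all genes without an intron entry, for those that are protein coding and apart, for those inside an intron of another gene, and for genes with an intron entry (dashed). The medians are 0.58, 0.01, 0.95 and −0.04, and the protein-coding genes that lie apart cross the dashed line near its middle.

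The higher ratio was unevenly spread over the 502 genes. Protein-coding genes that lay apart from other genes had a median of 0.01 (206 tested, 69 higher, 71 lower), against −0.07 over 13853 protein-coding genes with an intron entry. Those with 1 exon in every transcript had a median of −0.11 (171 tested). Their quartiles, −1.30 and 1.05, spanned a range no narrower than that of genes with an intron entry. Genes apart of any class had a median of 0.20, genes inside an intron 0.95, genes with another overlap 0.84, and the 52 genes without a match in the annotation 1.92. By class, long non-coding RNAs had a median of 1.58 (29 of 41 tested higher, 2 lower), protein-coding genes 0.35 and pseudogenes 0.20. In each of 4 bins of mean CPM the median was higher without an intron entry than with one (0.81 against 0.43 in the lowest bin, 0.38 against −0.62 in the highest), and likewise in each of 4 bins of transcript length (0.76 against −0.59 up to 1000 bases, 0.41 against 0.28 above 4000). These bins were not split by place.

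Genes inside an intron of another gene share their stretch of DNA with the unspliced RNA of the host. For 91 such genes, exon counts per kb of the gene were set beside intron counts per kb of the host. Left out were Gm6588, which was not tested, and genes whose host had no intron counts in 4sU RNA. The latter were Adam4, B130006D01Rik, Cstf2t, F8a, Gm10136 and Gm4787. These have exon counts but no ratio, so the medians and counts below leave them out. Whether the introns of these hosts lacked reads or were not counted could not be told. Lengths came from GENCODE M21 and the annotation used for counting is not given, so every density is uncertain. The ratio of these densities had a median of 3.19 in 4sU RNA and 12.1 in total RNA. In 4sU RNA 29 of the 91 lay within 2-fold of the host's introns, 57 above and 5 below, and in total RNA 19 lay within 2-fold, 65 above and 7 below. The 29 genes within 2-fold in 4sU RNA had a median log2 ratio of 4sU to total RNA of 2.07, and the 57 above had 0.81. Because 22 of the 98 genes lie in the protocadherin locus Gm37013, the values were also taken without them. The median density ratio was then 2.21 in 4sU RNA and 3.4 in total RNA (69 genes), so the total value depended on that locus. The median log2 ratio of 4sU to total RNA was 1.97 over 75 genes, and 0.08 over the 22.

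**Figure D2:**
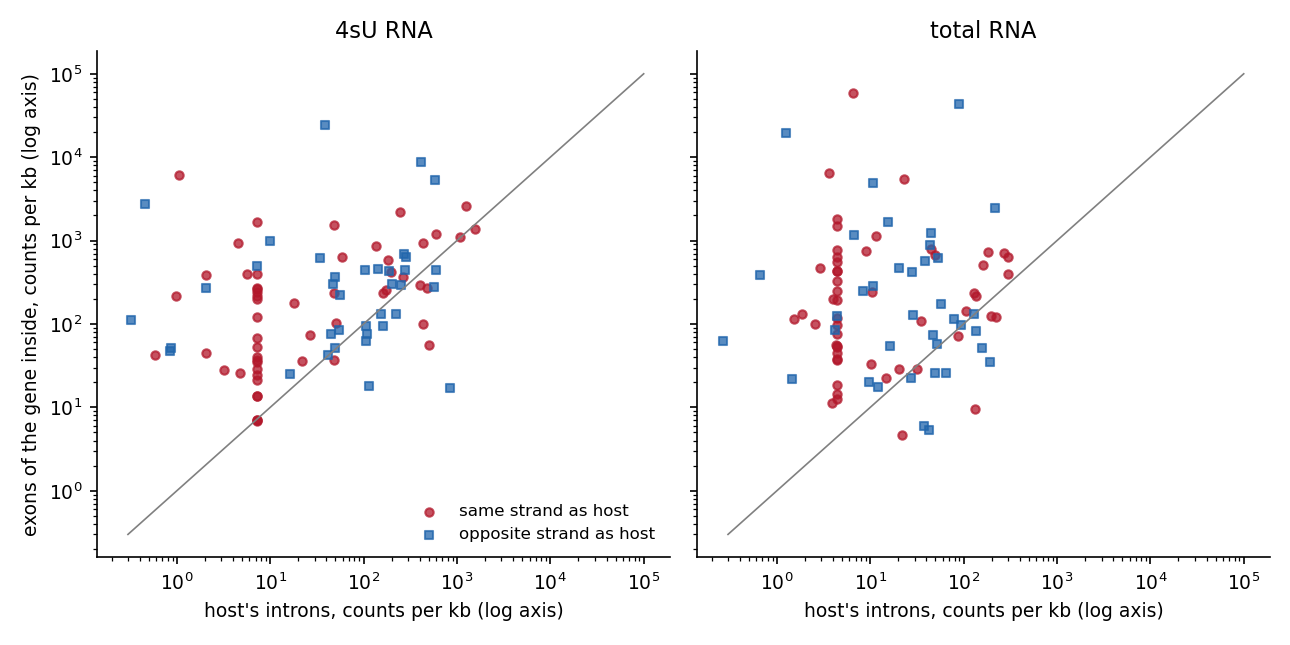
Exon counts per kb of genes inside an intron (y axis, log) against intron counts per kb of the host gene (x axis, log), summed over libraries of 4sU RNA (left) and total RNA (right). Points on the line have the density of the host's introns, circles share the host's strand and squares do not, and the vertical row of circles is the protocadherin locus.

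The examples that follow were picked after their values were seen, and they are not the ends of the range, which ran from 0.0204 to 6070 in 4sU RNA. Scarna3a had 1390 counts per kb in 4sU RNA against 1550 in the introns of its host Rfwd2, a ratio of 0.9. Nap1l5, a nucleosome assembly protein gene inside Herc3, had a ratio of 0.89, and Ldhal6b, a lactate dehydrogenase-like gene inside Tmem242, one of 0.569. These 3 genes had log2 ratios of 4sU to total RNA of 5.28, 5.09 and 5.91, on 17, 11 and 14 counts summed over the 6 libraries of total RNA. Dnm3os, the precursor of miR-199a and miR-214 on the opposite strand of Dnm3, had a density ratio of 622. Its 4sU level was 1180 to 2870 CPM (median 1860, scaled over 11 libraries) and its total level 107 to 232 CPM (median 186), a log2 ratio of 3.37 (SE 0.21).

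Nuclear and structured RNAs ranged from Rmrp, at −6.42, to Scarna3a, at 5.28. Of the 14 tested, 8 were higher in 4sU RNA and 3 lower, with a median log2 ratio of 2.26. Such RNAs with an intron entry were high as well: of 7 tested, 5 were higher and 1 lower, with a median of 1.47. Over all genes the median was −0.01, with 35.1% higher and 35.9% lower. Malat1 stood at 9420 to 13500 CPM in 4sU RNA against 1320 to 5200 CPM, without overlap (log2 ratio 2.06, SE 0.26). Neat1, which builds paraspeckles, stood at 309 to 605 and 21.3 to 162 CPM (2.53, SE 0.37). Kcnq1ot1, an antisense RNA of an imprinted domain, stood at 423 to 561 and 68.2 to 112 CPM (2.47, SE 0.16). Snhg1, a small nucleolar RNA host gene with up to 10 annotated exons, stood at 119 to 198 and 20.5 to 35.1 CPM (2.59, SE 0.17). Rmrp went the other way. It was listed at 0 in 2 libraries of 4sU RNA and at up to 0.268 CPM in the others, against 3.08 to 22.8 CPM in total RNA. Its fitted log2 ratio was −6.42 (SE 0.59, edgeR's adjusted p = 3.16e-08), and its locus overlaps Ccdc107. Rprl3 was lower as well (−1.38, SE 0.40), with overlapping levels of 1.70 to 2.91 and 1.65 to 18.8 CPM, a call absent when scaled by library size alone (edgeR's adjusted p = 0.199).

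Among transcription factors the ratio differed between members of 1 family. Sox11, a SOXC factor, stood at 19.2 to 52.3 CPM in 4sU RNA against 6.88 to 14.4 CPM (log2 ratio 1.71, SE 0.21), while Sox4 and Sox12 were not called (−0.30, SE 0.25, and 0.01, SE 0.40). Jun, the AP-1 subunit and immediate early gene, had a ratio of 0.55 (SE 0.20), a call lost by edgeR's adjusted p without shZc3h10 replicate 2 or scramble replicate 1 of 4sU RNA, up to 0.196. Jund was not called at 0.35 (SE 0.33). Of the 5 forkhead genes tested, Foxc2 was higher (1.37, SE 0.37), Foxs1, Foxl1 and Foxd2 were lower (−1.32, SE 0.17, −1.17, SE 0.24, and −1.24, SE 0.49), and Foxc1 was not called (−0.04, SE 0.25). Scaled by library size alone, Foxl1 and Foxd2 were not called (edgeR's adjusted p = 0.185 and 0.389). The small GTPase gene Rhob, which is induced by stress and growth factors, was higher (0.94, SE 0.27), a call lost without scramble replicate 1 of 4sU RNA (edgeR's adjusted p = 0.122).

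Receptors spread as widely. Of 9 G protein-coupled receptor genes tested, 5 were higher in 4sU RNA and 2 lower, with a median of 1.24. S1pr4, a sphingosine 1-phosphate receptor, stood at 5.58 to 7.49 CPM in 4sU RNA against 0.672 to 0.867 CPM (3.10, SE 0.20). Mc1r, the melanocortin receptor of pigment cells, had 2.86 (SE 0.26). Of the 4 Frizzled receptors of Wnt ligands tested, Fzd7 was higher (1.03, SE 0.19), Fzd2 and Fzd8 were lower (−1.12, SE 0.23, and −1.28, SE 0.50), and Fzd1 was not called (−0.11, SE 0.17). Scaled by library size alone, Fzd2 and Fzd8 were not called (edgeR's adjusted p = 0.253 and 0.377). The Fzd8 call was also lost without shZc3h10 replicate 1 or scramble replicate 2 of 4sU RNA (edgeR's adjusted p up to 0.141).

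Several enzymes and abundant genes had low ratios. Chst14, a dermatan sulphotransferase, stood at 8.04 to 11 CPM in 4sU RNA against 99.1 to 176 CPM, a log2 ratio of −3.80 (SE 0.21). H1f0, the linker histone of resting and differentiated cells, had −3.31 (SE 0.26), while the histone variant genes H2afj and H2afx had 1.02 (SE 0.16) and −0.32 (SE 0.20, not called). Pcbp1, an RNA-binding protein that also carries iron to ferritin, had −2.32 (SE 0.18), and Mgat2, an N-glycan enzyme, −2.11 (SE 0.22). Of the 7 glycosyltransferase and sulphotransferase genes, 3 were lower (median −0.43). Of 24 such genes with an intron entry, 10 were lower (median −0.45), and of all genes 35.9% were. The inducible heat shock genes Hspa1a (−1.47, SE 0.25) and Hspa1b (−0.54, SE 0.22) were lower, but Hspa1b turned to 0.22 when libraries were scaled by size alone, and its call was lost in 9 of 11 fits that left out 1 library. Epm2aip1, which encodes a partner of the glycogen phosphatase laforin, lay at the high end (377 to 555 against 12.1 to 31.6 CPM, log2 ratio 4.64, SE 0.20).

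Pseudogenes also lay at both ends. Gm10136, inside an intron of Cdc37l1, stood at 16.5 to 25.2 CPM in 4sU RNA and 244 to 999 CPM in total RNA (log2 ratio −4.59, SE 0.28), and Gm6682, which lies apart, had −3.35 (SE 0.22). H2afy3, which overlaps the long non-coding gene Pvt1, stood at 3.90 to 6.42 against 0.0578 to 0.845 CPM (4.49, SE 0.31), and Gm14057, which overlaps 4930402H24Rik, had 4.56 (SE 0.42). Zxda, a zinc finger gene that GENCODE M21 classes as a pseudogene, stood at 43.5 to 62.5 against 2.78 to 6.8 CPM (3.70, SE 0.22), and its relative Zxdb had 1.36 (SE 0.26). Reads of retrocopies and their parent genes may be split or lost in alignment, which was not tested.

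**Figure D3:**
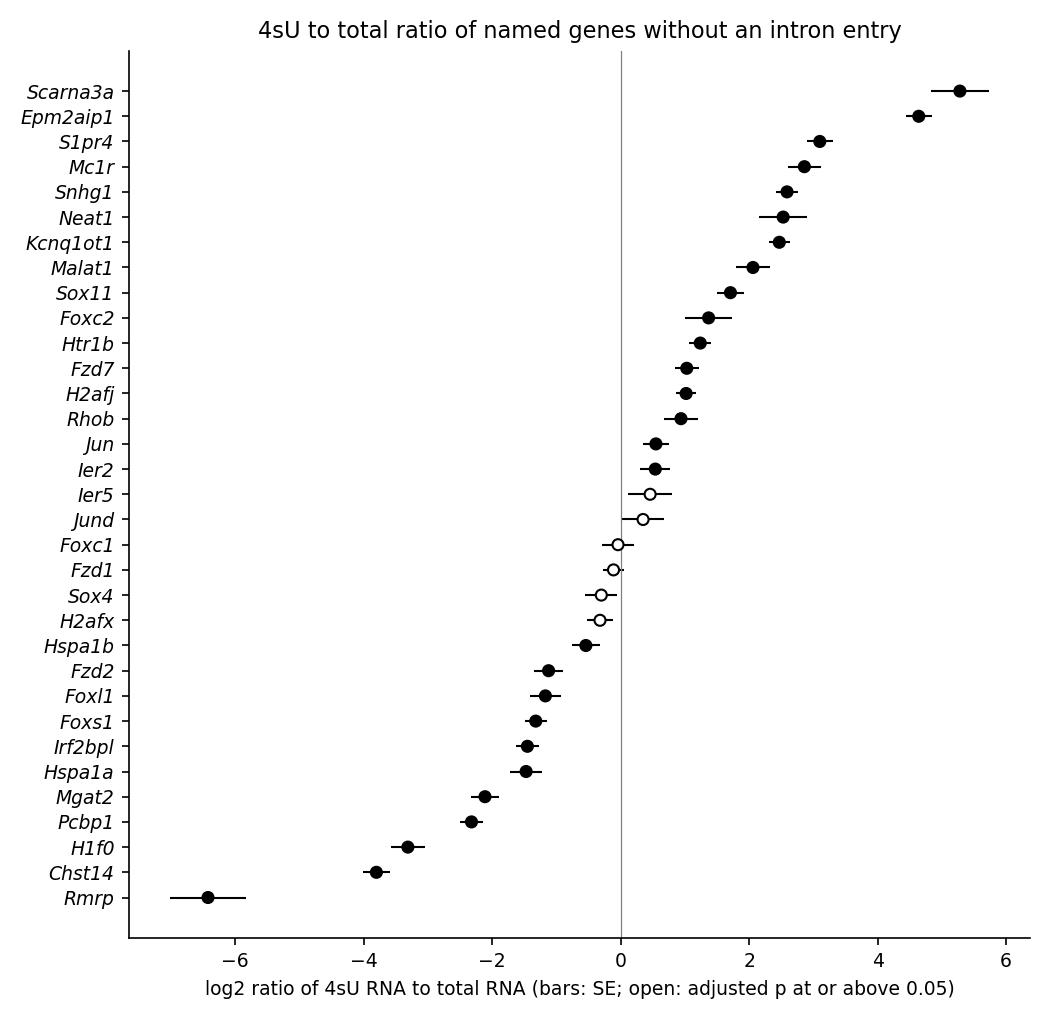
Log2 ratio of 4sU RNA to total RNA (x axis) for 33 named genes without an intron entry, with bars for the SE over 11 libraries and open points where edgeR's adjusted p was at or above 0.05. Nuclear RNAs and several receptors lie on the right, and Rmrp, Chst14 and H1f0 on the left.

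In 4sU RNA the share of genes changed by the hairpin was near the background. Of 424 genes without an intron entry tested, 19 rose and 23 fell in libraries labelled shZc3h10 (4.48% and 5.42%) by the quasi-likelihood test of edgeR, adjusted by Benjamini-Hochberg over all genes. Of all 13637 genes tested, 10.4% were called, with 5.66% higher and 4.69% lower, and of genes with an intron entry 10.5% were called. The median log2 fold change was 0.02 over the 424 genes and 0.00 over all genes. CPM of the hairpin groups did not overlap for 137 of the 424 genes (32.3%) and for 37.2% of all genes.

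**Figure D4:**
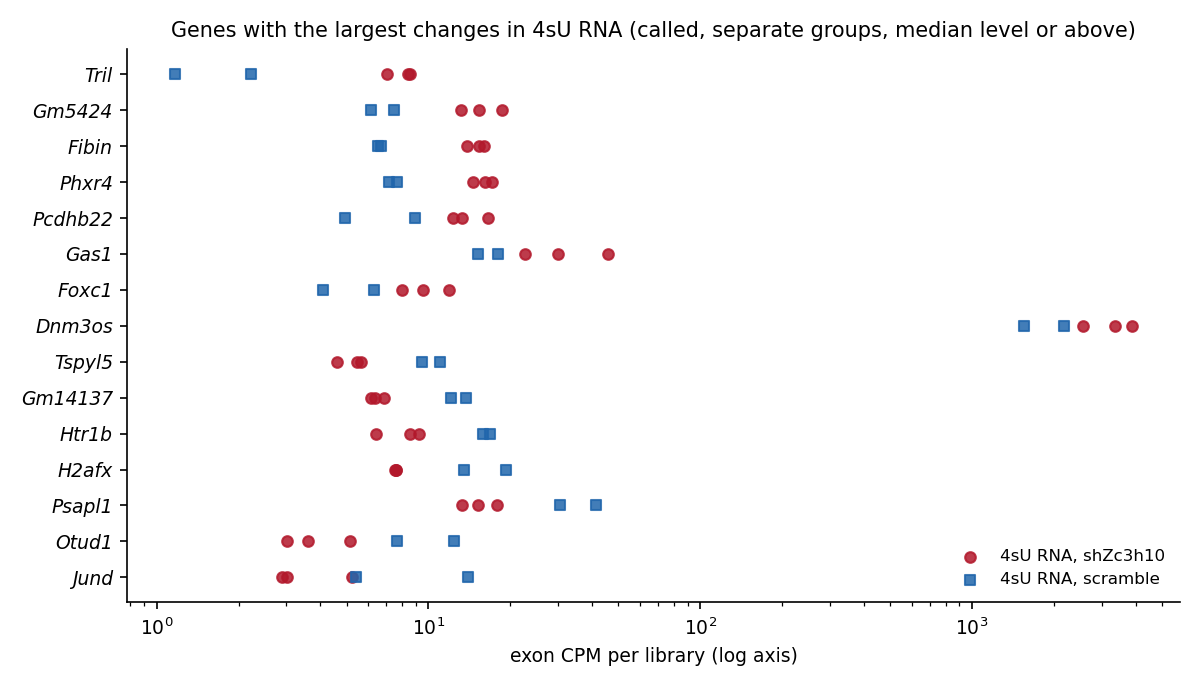
Exon CPM per library of 4sU RNA (x axis, log) for the 15 genes with symbols that had the largest changes each way among genes called with separate groups and at least a median level (a choice that fixes the separation), with circles for the 3 shZc3h10 libraries and squares for the 2 scramble libraries. Circles lie right of squares for the upper 8 genes and left of them for the lower 7, and Jund has 1 square next to a circle.

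Jun and Jund fell. Jun stood at 181, 211 and 190 CPM with shZc3h10 and at 391 and 267 CPM with scramble, a log2 fold change of −0.76 (SE 0.15, edgeR's adjusted p = 0.00228). Jund stood at 3.01, 5.25 and 2.90 CPM against 14 and 5.42 CPM (−1.43, SE 0.33, edgeR's adjusted p = 0.00729). Jund was also named by a rule that requires separate groups. The groups did not overlap in either gene, but scramble replicate 1 was well above replicate 2 in both, and without it edgeR's adjusted p was 0.159 for Jun and 0.576 for Jund. Of 10 tested AP-1 and related genes with an intron entry, Fos (1.11, SE 0.14) and Maf (0.90, SE 0.17) rose, Atf3 (−1.37, SE 0.14) and Fosl1 (−0.57, SE 0.16) fell, and Junb was not called (−0.11, SE 0.17).

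Rhob and Otud1 were called lower. Rhob stood at 48.9, 103 and 78.3 CPM against 202 and 83.5 CPM, overlapping groups with a log2 fold change of −0.90 (SE 0.27, edgeR's adjusted p = 0.0364). Its call was absent by DESeq2 (adjusted p = 0.417) and was lost without scramble replicate 1 (edgeR's adjusted p = 0.900), shZc3h10 replicate 1 or shZc3h10 replicate 3. Otud1, a deubiquitinase, stood at 3.01, 5.16 and 3.59 CPM against 12.4 and 7.69 CPM (−1.39, SE 0.27), a call lost without scramble replicate 1 (edgeR's adjusted p = 0.118). Of the 4 immediate early and feedback genes without an intron entry that were tested, Rhob was the 1 called. Ier2 stood at 33.7, 42.7 and 44.0 CPM against 30.0 and 29.7 CPM and was not called (0.43, SE 0.16), nor was Ier5 (−0.32, SE 0.33). Of 30 such genes with an intron entry 8 rose and 5 fell.

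Among chromatin and developmental genes, H2afx, the histone variant phosphorylated at DNA breaks, stood at 7.61, 7.60 and 7.52 CPM against 19.3 and 13.5 CPM. Its log2 fold change was −1.12 (SE 0.21, edgeR's adjusted p = 0.000983, and 0.0688 without scramble replicate 1). Sox11 stood at 29.1, 47.7 and 25.9 CPM against 69.1 and 54.9 CPM (−0.87, SE 0.20), and its call was lost without shZc3h10 replicate 3 or scramble replicate 1 (edgeR's adjusted p up to 0.108). Irf2bp1, a transcriptional corepressor, fell by 0.90 on the log2 scale (SE 0.25), a call lost without any of 3 of the 5 libraries (shZc3h10 replicates 1 and 3, scramble replicate 1, up to 0.282 by edgeR's adjusted p). Tspyl5, of the nucleosome assembly family, stood at 4.59, 5.63 and 5.45 CPM against 9.44 and 11 CPM (−0.97, SE 0.23, and 0.0862 by edgeR's adjusted p without scramble replicate 2). Sox4 (0.04, SE 0.25) and H1f0 (0.22, SE 0.19) were not called.

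The serotonin receptor gene Htr1b fell, at 6.39, 9.19 and 8.56 CPM against 15.9 and 16.8 CPM (log2 fold change −1.03, SE 0.21, edgeR's adjusted p = 0.00196). It was called in every fit that left out 1 library, up to 0.0179. Psapl1, a saposin-like gene inside an intron of Sorcs2 on the opposite strand, fell as well, from 30.6 and 41.4 CPM to 17.8, 13.3 and 15.2 CPM (−1.21, SE 0.18). The introns of Sorcs2 fell by 1.28 on the log2 scale in the same libraries. The long non-coding RNAs Neat1 (−0.58, SE 0.15) and Snhg1 (−0.53, SE 0.14) fell, while Malat1 was not called (−0.22, SE 0.15). The Neat1 call was lost without shZc3h10 replicate 3 or scramble replicate 1 and that of Snhg1 without shZc3h10 replicate 3 or scramble replicate 2 (edgeR's adjusted p up to 0.284 and 0.143). Entrez gene 751530, which carries no symbol in the files, fell from 2090 and 1540 CPM to 795, 1070 and 672 CPM (−1.10, SE 0.17).

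Of the genes that rose, Tril encodes an accessory protein of Toll-like receptors. It stood at 8.40, 8.54 and 7.04 CPM with shZc3h10 and at 2.22 and 1.17 CPM with scramble. The log2 fold change was 2.18 (SE 0.31, edgeR's adjusted p = 6.4e-05, and 0.00118 at most with 1 library left out). Fibin, a secreted protein named for fin bud initiation, stood at 15.4, 16 and 13.9 CPM against 6.52 and 6.67 CPM (1.19, SE 0.20), and was called in every fit that left out 1 library. Gas1, a growth arrest gene and Hedgehog coreceptor, stood at 22.7, 45.9 and 29.9 CPM against 18.1 and 15.2 CPM (0.97, SE 0.23, and 0.0577 by edgeR's adjusted p without scramble replicate 2). Thbd, the anticoagulant receptor thrombomodulin, stood at 60.7, 70.3 and 95.6 CPM against 48.5 and 39.6 CPM (0.78, SE 0.18), a call lost without shZc3h10 replicate 3 or scramble replicate 2 (edgeR's adjusted p up to 0.0811). Foxc1 rose by 0.89 (SE 0.25), a call that 3 of the 5 libraries each carried (without shZc3h10 replicate 2, shZc3h10 replicate 3 or scramble replicate 2, up to 0.230 by edgeR's adjusted p).

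Dux, the zygotic activator gene that exists in tandem copies, had the largest fitted change among the genes called, 3.96 (SE 1.08, edgeR's adjusted p = 0.0206), and is named after its values were seen. Its exon counts were 30, 43 and 2 with shZc3h10 and 0 and 4 with scramble, so the groups overlapped and replicate 3 stood with the scramble libraries.

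More genes inside introns rose than fell in 4sU RNA. Over all genes tested, 5.66% rose and 4.69% fell. Of 91 genes inside introns that were tested, 9 rose and 3 fell, with a median of 0.25 against 0.00 over all genes. The beta protocadherins, cell adhesion proteins each encoded by 1 large exon, made up much of this. In the list of clustered protocadherins, 18 genes without an intron entry were tested, of which Pcdhb17, Pcdhb18, Pcdhb20 and Pcdhb22 rose (median 0.66, range −0.50 to 1.68). Of 22 list members with an intron entry, 4 rose (median 0.58). Pcdhb22 stood at 13.3, 12.3 and 16.6 CPM against 8.89 and 4.91 CPM (1.01, SE 0.24, and 0.131 by edgeR's adjusted p without scramble replicate 2). Pcdhb18 (0.63, SE 0.18) and Pcdhb20 (0.76, SE 0.21) lost their calls without shZc3h10 replicate 3 or scramble replicate 1, up to 0.362 and 0.411 by edgeR's adjusted p, and Pcdhb18 also without shZc3h10 replicate 1. The introns counted for the surrounding locus Gm37013 rose by 0.67 in the same libraries. Without that locus, 5 of 72 genes inside introns rose and 3 fell, near the shares over all genes, with a median of 0.09.

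Elsewhere the gene inside and its host's introns moved together in some cases and not in others. Phxr4 stood at 16.2, 14.6 and 17.1 CPM against 7.17 and 7.69 CPM (1.11, SE 0.20), and the introns of its host Maml2, a Notch coactivator gene, rose by 0.86. Rgag4, a retrotransposon-derived gene, rose by 2.33 (SE 0.58) from 0.859 and 0.0732 CPM to 2.15, 3.19 and 2.55 CPM, and the introns of Nhsl2 by 1.16. The Rgag4 call was lost without scramble replicate 2 (edgeR's adjusted p = 0.101). Dnm3os rose from 1560 and 2180 CPM to 3880, 2560 and 3350 CPM (0.80, SE 0.17), while the introns of Dnm3 had a change of 0.28 that was not called (edgeR's adjusted p = 0.0867). Its own call was lost without scramble replicate 1 (edgeR's adjusted p = 0.0943). Gm14137 fell by 1.01 (SE 0.21), and the introns of Dnajc17 had a change of 0.01. The Gm14137 call was lost without scramble replicate 1 (edgeR's adjusted p = 0.0552). Scarna3a rose by 1.17 (SE 0.37, edgeR's adjusted p = 0.0478, and 0.0602 by DESeq2), from 1.92 and 1.17 CPM to 3.73, 2.91 and 4.00 CPM, a call that held in 1 of 5 fits with 1 library left out, and the introns of Rfwd2 had a change of 0.11. How much of each change in the gene inside came from host RNA was not tested.

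In total RNA 11 of 414 genes without an intron entry were higher and 17 lower under the shZc3h10 label, 6.76% in all. Of all 13846 genes tested, 6.42% were called, with 3.06% higher and 3.36% lower. The median log2 fold change was −0.26 against −0.10 over all genes. Scaled by library size alone, the calls were 4 higher and 28 lower and the median of all genes −0.45, so the split depends on the scaling. Single libraries decided most of these calls. With 1 library left out, 2 to 77 of the genes were called (13 and 16 without shZc3h10 replicates 1 and 2, 16 without replicate 3, 3 without scramble replicate 1, 77 without replicate 2, 2 without replicate 3), and of the 24 named changes only that of Tril was called in all 6 fits.

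Tril stood at 1.24, 2.53 and 2.99 CPM under the shZc3h10 label and at 11.4, 8.22 and 15.3 CPM under the scramble label (−2.37, SE 0.36, edgeR's adjusted p = 0.00203). The Wnt receptor gene Fzd1 stood at 20.9, 26 and 31 CPM against 50.2, 54.7 and 75.1 CPM (−1.21, SE 0.27), while Fzd2 and Fzd7 were not called (−0.36, SE 0.29, and −0.33, SE 0.29). Thbd stood at 17.8, 20.2 and 19.1 CPM against 38.7, 47.2 and 36.7 CPM (−1.10, SE 0.25). Each of these groups was separate, which the rule for naming the largest changes fixed in advance for Tril and Fzd1. In total RNA, CPM of the hairpin groups did not overlap for 100 of the 414 genes (24.2%) and for 29.3% of all genes. Cebpa, a factor of adipocyte and myeloid differentiation, was low throughout, at 0.278, 0.329 and 0.612 CPM against 1.70, 0.790 and 3.69 CPM (−2.36, SE 0.54). Pcbp1 was higher, at 386, 321 and 479 CPM against 191, 178 and 143 CPM (1.21, SE 0.30), and so was Ch25h, which makes 25-hydroxycholesterol (1.19, SE 0.31). Itpripl2 was lower (−1.50, SE 0.35), at 17.7, 19.2 and 14.6 CPM against 50.6, 23.6 and 71.2 CPM, in a call lost without any of 4 of the 6 libraries (shZc3h10 replicates 1 and 3, scramble replicates 1 and 3, up to 0.153 by edgeR's adjusted p). Jun (0.09, SE 0.33), Jund (−0.67, SE 0.43) and H2afx (0.06, SE 0.32) were not called. The calls of Fzd1, Thbd, Cebpa, Pcbp1 and Ch25h were each lost without scramble replicate 1 or 3, among other libraries (edgeR's adjusted p up to 0.112, 0.0837, 0.173, 0.124 and 0.164 over all libraries left out).

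**Figure D5:**
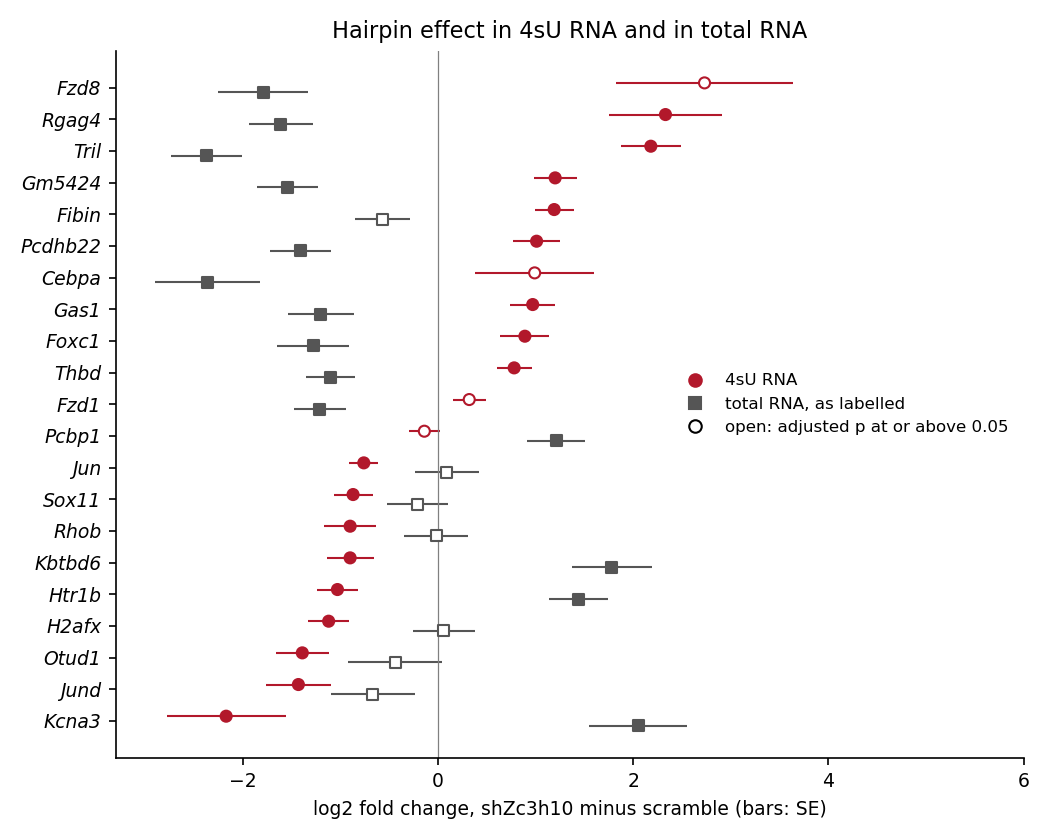
Log2 fold change, shZc3h10 minus scramble as labelled (x axis), in 4sU RNA (circles) and total RNA (squares) for 21 named genes without an intron entry, with bars for the SE and open symbols where edgeR's adjusted p was at or above 0.05. Genes from Tril to Thbd lie right in 4sU RNA and left in total RNA, while Jun, Sox11, Rhob and H2afx lie left in 4sU RNA and near 0 in total RNA. The test of the difference between effects called H2afx but not Jun, Sox11 or Rhob.

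The hairpin effect was tested for a difference between the kinds of RNA. Of 490 genes, 24 had a higher effect in 4sU RNA than in total RNA and 20 a lower one, 8.98% in all. Of all 15046 genes 14.1% were called, with 5.55% higher and 8.56% lower (scaled by library size alone, 55 and 13, with the median of all genes at 0.49). 12 genes were called in both kinds of RNA, and in all 12 the labelled directions were opposite: Tril, Gm5424, Gas1, Foxc1, Thbd, Rgag4, Pcdhb22 and Fam43a rose in 4sU RNA and fell in total RNA, and Htr1b, Kbtbd6, Kcna3 and F8a did the reverse. The same count over all genes was not taken, so the pattern is not shown to be particular to genes without an intron entry. The count of 12 rested on single libraries. With 1 library of total RNA left out, 2 to 17 genes were called in both (3 without scramble replicate 1, 2 without scramble replicate 3), and with 1 library of 4sU RNA left out 4 to 11 (4 without scramble replicate 2, 6 without shZc3h10 replicate 3). Tril was called in both in each of these fits. Scaled by library size alone, 10 genes were called in both, 9 of them among the 12, and Htr1b, Kbtbd6 and F8a were not. Both kinds of RNA were taken from the same harvests per the labels' protocols. Htr1b stood at 4.52, 4.6 and 4.88 CPM in total RNA labelled shZc3h10 and at 2.01, 1.61 and 1.51 CPM in that labelled scramble (1.44, SE 0.30), a difference between effects of −2.62. Gm5424, a pseudogene, stood at 18.7, 13.2 and 15.3 against 7.47 and 6.15 CPM in 4sU RNA (1.20, SE 0.22) and at 10.9, 15.1 and 7.52 against 41.8, 31.5 and 24 CPM in total RNA (−1.54, SE 0.31). Kcna3, a potassium channel gene, was near the floor in both, at 0.0718, 0.844 and 0.552 against 2.83 and 1.39 CPM in 4sU RNA and at 0.578, 0.596 and 0.833 against 0.114, 0.190 and 0.180 CPM in total RNA. F8a rested on 1 library, with 710 counts in total replicate 3 labelled shZc3h10 and 14 to 44 in the other 5. With the hairpins of the file names in place of the labels, the 12 genes would move the same way in both kinds of RNA. The calls of the difference test rest on the labels as well, and that test was not run with the hairpins of the file names.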

How the data were processed

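RNA was sequenced from 11 libraries of C2C12 cells, in 22 files of raw counts per gene that the authors deposited, 1 for exons and 1 for introns of each library. Reads were aligned to mm9 with TopHat2 2.0.8 and TopHat, per the submitters' processing notes. Which program and annotation served for counting, and whether strand was used, is not given in the sources used here. Groups follow titles and genotype labels. Exon counts of all genes passed filterByExpr (minimum count 10, minimum total 15), TMM scaling and the quasi-likelihood test of edgeR 4.0.16 in R 4.3.3, with Benjamini-Hochberg adjustment over all genes tested and calls below 0.05. The 4sU libraries and the total libraries were fitted apart for the hairpin effect, and all 11 in 1 fit with 4 group means for 4sU RNA against total RNA and for the difference of effects. CPM are scaled within the fit named, so levels given beside hairpin effects and beside ratios of 4sU to total RNA differ. SEs come from the F statistic and the log2 value. The scripts were tested on simulated data.

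The genes and the gene lists were chosen with earlier results of these data known. Named genes are the 8 largest called changes each way with separate groups and a mean level at or above the median of the genes tested (5 each way for 4sU against total RNA), up to 3 called genes a list by smallest adjusted p, and a fixed set of known intronless genes. Examples inside introns, Dux, F8a, Foxd2, Fam43a and Pcdhb17 fall outside the rule, and 1 gene that it names is not reported here. GENCODE M21 (GRCm38) gave class, exon number, length and overlap, and the 450 matched genes only. Since the builds differ, no coordinates of the files were used. Alternatives were DESeq2 1.42.0, scaling by library size, no filter, a replicate block and leaving out each library. Comparisons by place, by protein-coding class and by exon number, and the block for the difference of medians, were added after the data were seen.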

Additional observations from a re-analysis of the deposited data

Results flagged for a closer look

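Of the named genes without an intron entry, 30 had a hairpin effect in 4sU RNA that differed from that in total RNA as labelled, by edgeR's test of the difference in the fit over 11 libraries. Values are log2 differences, the effect in 4sU RNA minus that in total RNA.

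The effect was higher in 4sU RNA for Scarna3a 4.48, Tril 4.43, Fzd8 4.41, Rgag4 3.81, Cebpa 3.22, H2afy3 2.80, Gm5424 2.57, Pcdhb22 2.28, Foxc1 2.04, Gas1 2.04, Phxr4 1.88, Thbd 1.73, Fibin 1.60, Hspa1b 1.58, Fzd1 1.39, Pcdhb20 1.39, Pcdhb18 1.35. In Tril the hairpin effects were 2.18 in 4sU RNA and −2.37 in total RNA (edgeR's adjusted p of the difference 2.77e-05). Fzd8 and Scarna3a were at or near 0 counts in some libraries, so the size of their difference is uncertain.

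The effect was lower in 4sU RNA for Kcna3 −4.35, Kbtbd6 −2.81, Htr1b −2.62, Ch25h −2.23, Psapl1 −2.14, Tspyl5 −1.99, 1110006O24Rik −1.90, A630066F11Rik −1.83, Entrez 626954 −1.81, Phtf1os −1.58, Pcbp1 −1.50, H2afx −1.33, Pnmal2 −1.21. In Htr1b the hairpin effects were −1.03 and 1.44 (edgeR's adjusted p of the difference 7.39e-05). All of these differences, and those given above, rest in size and sign on the labels of the total RNA libraries, whose file names carry the other hairpin. Which of them would be called with the hairpins of the file names was not tested.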

How the results depend on the processing

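The count of genes called for 4sU RNA against total RNA, 347, stayed between 316 and 364 under every alternative run. The other counts depended on single libraries. In 4sU RNA, 42 genes were called with all libraries, 19 to 53 with 1 left out, and 24 with the replicate block. In total RNA, 28 were called, 2 to 77 with 1 left out, and 1 with the block. For the difference of effects, 44 were called, 68 when scaled by library size alone, and 25 to 68 with 1 library left out. Without the filter on low counts 58 and 41 genes were called in the 4sU and total libraries, and by DESeq2 39 and 41. Whether replicate numbers pair the samples was not settled. Deviations from group means of same-numbered libraries correlated at −0.0906 and −0.128 in 4sU RNA, and at 0.169, −0.196 and −0.223 in total RNA. The deviations of the 2 scramble libraries of 4sU RNA mirror each other, so correlations with them decide little. Between 4sU and total RNA, same-numbered libraries correlated at 0.105 and 0.236 (scramble) and at 0.0789, 0.00264 and −0.0655 (shZc3h10). The main fits took no account of pairing. The difference of medians, 0.62, was 0.81 without the filter, 0.45 with named symbols only, 0.24 for genes apart, 1.00 for genes inside an intron, 0.08 for protein-coding genes apart, 0.45 for genes with 1 exon, 0.68 with the replicate block and 0.60 to 0.75 with 1 library left out. The cause was not tested. Scaled by library size alone, the log2 ratio of 4sU to total RNA turned to 0.22 for Hspa1b, 0.01 for Irf2bp1 and 0.15 for Tspyl5. Of 30 named changes in 4sU RNA, 7 were called in every fit with 1 library left out, 28 by DESeq2, 29 scaled by library size and 21 with the block. Of 24 in total RNA the counts were 1, 21 of the 22 with a DESeq2 p, 19 and 1. Of 70 in 4sU against total RNA they were 60, 69, 54 and 68. With 1 scramble library of 4sU RNA left, that library is assumed to vary like the others. Depth limits genes under about 1 CPM, such as Kcna3, Fzd8 and Cebpa, where few counts decide a fold change.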
